A study of Mus musculus with 6 samples.

Results

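In bulk RNA-seq of mouse cerebellum, 32 genes of cholesterol synthesis and lipid efflux were followed, taken by symbol from a count table of 53746 genes. They comprise 18 enzymes of sterol synthesis, 6 genes listed as SREBP regulators, and 8 genes of LXR signaling, sterol efflux and lipoprotein handling. The SREBP list holds the genes of the SREBP transcription factors themselves, *Srebf1* and *Srebf2*, with *Scap*, *Insig1*, *Insig2* and *Stard4*. All 32 symbols were in the table. Of the 16961 genes with enough reads to be tested, 30 belonged to this group, and *Fdps* and *Ch25h* fell under the filter on low counts.

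Whole cerebella were taken from 3 *N153S* LSL/LSL *Pcp2-cre* mice (Pcp2-cre mice) and 3 *N153S* LSL/LSL mice (control mice) at 2 months of age, with mice 1 and 2 of each genotype male and mouse 3 female. Both genotypes carried, on both alleles, a *Sting1* N153S knockin that is held silent by a LoxP-Stop-LoxP cassette. *Pcp2-cre* drives Cre in Purkinje cells, so the cassette is removed in these neurons of the Pcp2-cre mice. RNA came from the complete tissue after perfusion, and in such bulk samples fewer cells of a type and less RNA per cell cannot be told apart.

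Cholesterol is made in the brain itself because plasma lipoproteins do not cross the blood-brain barrier. Acetyl-CoA is built up into mevalonate and isoprenoid units, which are joined into squalene, closed into lanosterol and trimmed in several steps to cholesterol. When membranes hold little sterol, SCAP escorts the SREBP transcription factors out of the endoplasmic reticulum and the genes of the pathway are switched on, and when sterol is plentiful INSIG proteins hold SCAP back. Oxidized sterols instead activate the LXR receptors, which switch on exporters such as ABCA1. Oligodendrocytes use large amounts of cholesterol for myelin, and astrocytes, including the Bergmann glia around Purkinje cells, supply it to neurons in lipoprotein particles.

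The promoters of 3 of the 5 genes that fell are shown as examples, because SREBP proteins act through a sterol response element, usually with a CCAAT box nearby. That of *Abca1*, which rose, is shown beside them, and elements for LXR were not searched. Each run holds 250 bases before and 50 bases after the RefSeq start site of the gene (table built on GRCm38.p6), 5′ to 3′ on the strand of the gene. All 4 matched GRCm39 exactly once, at chr13:120151637-120151936 on the forward strand for *Hmgcs1*, chr8:65186563-65186862 on the reverse strand for *Msmo1*, chr5:28276160-28276459 on the forward strand for *Insig1* and chr4:53159846-53160145 on the reverse strand for *Abca1*. Capitals mark the sterol response element core TCACNCCAC and the CCAAT box, written ATTGG where it lies on the opposite strand.
Hmgcs1: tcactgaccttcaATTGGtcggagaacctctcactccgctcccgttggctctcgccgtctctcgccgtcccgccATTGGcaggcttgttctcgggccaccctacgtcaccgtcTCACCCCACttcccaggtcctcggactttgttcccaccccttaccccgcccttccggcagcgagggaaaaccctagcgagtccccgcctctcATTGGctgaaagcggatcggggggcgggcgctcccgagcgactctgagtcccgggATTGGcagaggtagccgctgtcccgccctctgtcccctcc
Msmo1: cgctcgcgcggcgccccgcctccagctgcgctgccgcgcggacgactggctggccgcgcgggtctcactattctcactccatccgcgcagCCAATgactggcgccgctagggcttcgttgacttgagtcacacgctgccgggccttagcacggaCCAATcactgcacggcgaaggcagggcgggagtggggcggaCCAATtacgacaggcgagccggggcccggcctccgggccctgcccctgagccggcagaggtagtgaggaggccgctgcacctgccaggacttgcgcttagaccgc
Insig1: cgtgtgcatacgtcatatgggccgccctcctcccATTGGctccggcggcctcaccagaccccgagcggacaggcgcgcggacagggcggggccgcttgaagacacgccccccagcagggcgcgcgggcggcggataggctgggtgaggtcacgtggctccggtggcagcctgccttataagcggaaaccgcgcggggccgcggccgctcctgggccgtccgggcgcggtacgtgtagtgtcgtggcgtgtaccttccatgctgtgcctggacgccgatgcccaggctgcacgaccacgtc
Abca1: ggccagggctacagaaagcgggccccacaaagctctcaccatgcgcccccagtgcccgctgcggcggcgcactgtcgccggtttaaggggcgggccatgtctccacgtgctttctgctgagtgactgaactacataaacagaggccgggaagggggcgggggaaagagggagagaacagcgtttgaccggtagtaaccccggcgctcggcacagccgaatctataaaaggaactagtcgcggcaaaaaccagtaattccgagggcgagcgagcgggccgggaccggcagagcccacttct

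Promoters were found for 26 of the 32 genes. The core of the sterol response element occurred in 1 of these 26 genes (3.85%), *Hmgcs1*, where it begins 137 bases before the start site, against 1.45% of the 11647 tested genes with a promoter. A CCAAT box occurred in 20 of 26 genes (76.9%), against 42.8% of tested genes. *Hmgcs1* held 4 of them, *Msmo1* 3 and *Insig1* 1, and *Abca1* held none in this window. The GC box GGGCGG occurred in 22 of 26 genes (84.6%), against 66.5%, and all 4 printed promoters hold it. Both strands were searched, the motifs do not overlap by their letters, and a match is a description of the sequence only. Only exact matches in this window were counted, so sterol response elements that differ by a letter were missed. *Sqle*, *Fdft1*, *Fdps*, *Stard4*, *Abcg1* and *Lpl* had no promoter to search.

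Library totals lay between 6733178 and 10178218 counts, so that 3 counts, used as the limit of detection, came to 0.297 to 0.447 CPM, a count scaled to library size with TMM factors. This limit covers counting error only. *Sting1*, the engineered gene, was higher in all 3 Pcp2-cre mice (log2 fold change 0.57, Benjamini-Hochberg adjusted p = 3.59e-04, edgeR's quasi-likelihood test). Listed markers placed the tissue as cerebellum, with summed Purkinje cell markers at 6235 to 6793 CPM and granule cell markers at 4733 to 4784 CPM in controls. The choroid plexus list (7 genes, 4 of them tested, none at 0 in all mice) stood at 28.8 to 217.8 CPM in control mice, with mouse 3 low, and at 18.8 to 25.2 CPM in Pcp2-cre mice.

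Levels between genes were compared per length, in deposited FPKM. *Nr1h2*, which encodes LXR beta, and *Hmgcs1* stood highest in control cerebella, both at 33.8 FPKM (SD 0.445 and 1.02, n = 3 mice). *Srebf2* followed at 25.6 ± 0.733 FPKM. The 18 synthesis enzymes spanned 3.69 ± 0.211 FPKM for *Hsd17b7* to the level of *Hmgcs1*. All genes but *Lpl* and *Ch25h* lay above 3 FPKM in controls. *Lpl* stood at 0.236 ± 0.0525 FPKM and *Ch25h* at 0.158 ± 0.109 FPKM (SD, n = 3), the lowest levels in the group.

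**Figure D1:**
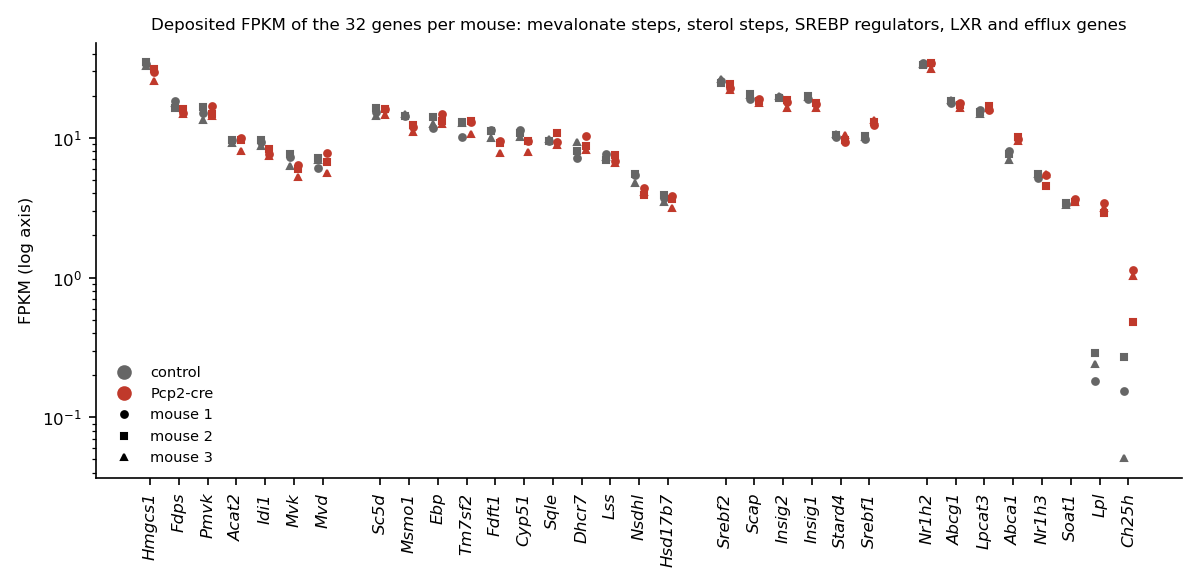
Deposited FPKM (vertical axis, logarithmic) of each of the 32 genes in each mouse, ordered within 4 roles by the control mean, with grey for control and red for Pcp2-cre mice and a marker shape for each mouse number. Most genes lie between 3 and 35 FPKM with both colors close together, while *Lpl* and *Ch25h* lie lower and their red points stand apart above the grey.

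Of the 30 genes tested, 5 fell and 3 rose in Pcp2-cre cerebella at an adjusted p of at most 0.05. *Hmgcs1*, *Msmo1*, *Insig1*, *Insig2* and *Srebf2* fell, and *Lpl*, *Abca1* and *Srebf1* rose. Lower genes made up 16.7% of those tested, beside 4.75% of all 16961 genes, and 2.99% of all genes were higher. The genes were chosen with earlier results of these data known, so the shares are a description only. The study also asked for a fold change of 0.5 or more in size on the log2 scale. Only *Lpl* met it, 1 of the 30 genes, close to the 3.17% of all genes. *Lpl* passed the filter on low counts only through the Pcp2-cre mice. The median log2 fold change of the 30 genes was -0.08, beside 0.00 over all genes. On CPM, the Pcp2-cre mice all lay below the controls in 11 of the 30 genes, beside 11.4% of all genes. They all lay above them in 3 genes, close to the 10.8% of all genes. On FPKM the genotypes overlapped for *Mvk*, *Scap* and *Abcg1*, while *Nsdhl* lay below and *Soat1* above. The 22 genes that did not pass had log2 fold changes between -0.25 and 0.10, and their 95% intervals all lay within -0.49 to 0.42, so a change of 0.5 in size was outside each interval. Apart from *Lpl*, the genes that passed differed by between -0.30 and 0.27 on the log2 scale.

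**Figure D2:**
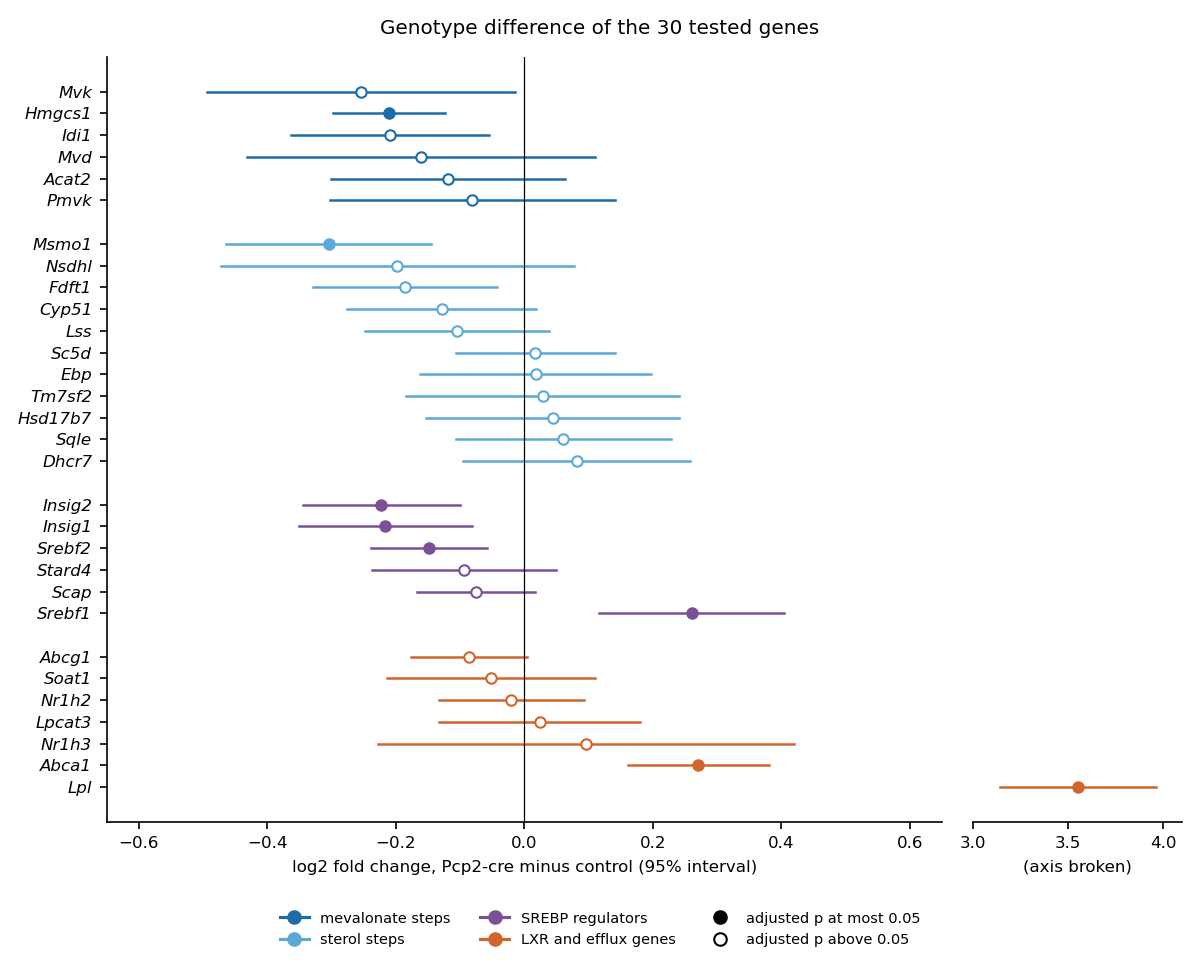
Log2 fold change (Pcp2-cre minus control) of the 30 tested genes with its 95% interval, grouped by role, with filled points for an adjusted p of at most 0.05 and a broken axis for *Lpl*. All 6 points of the mevalonate steps lie below 0, the sterol steps lie on both sides, and *Lpl* stands alone at 3.55.

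The enzymes of the mevalonate steps make isoprenoid units from acetyl-CoA. All 6 that were tested had log2 fold changes below 0, beside 48.7% of all genes tested. They lay between -0.25 and -0.08 with a median of -0.19, and 1 of them, *Hmgcs1*, passed the test. The sign of *Pmvk* turned in 5 of 17 alternative settings. *Hmgcs1* encodes the synthase that condenses acetyl-CoA with acetoacetyl-CoA. Controls 1, 2 and 3 had 130.2, 134.3 and 125.2 CPM, and Pcp2-cre mice 1, 2 and 3 had 113.0, 111.7 and 111.3 CPM, the order kept for all genes that follow. All Pcp2-cre mice lay below all controls and close to each other. *Hmgcs1* fell by 13.6% (log2 fold change -0.21, standard error 0.0415, adjusted p = 0.00171, edgeR's quasi-likelihood test). The call held without any 1 mouse and with DESeq2 (adjusted p = 0.0209), and was lost on FPKM (adjusted p of 0.215 and 0.227 with limma) and with a choroid plexus or oligodendrocyte score in edgeR's test (0.216 and 0.916). The gene lies on chromosome 13 of GRCm39 from 120151915 to 120170470, and 557 bp of its exons (10.6%) are shared with the opposite-strand lncRNA *Gm48342*, which also fell (log2 fold change -0.31, adjusted p = 0.0268).

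*Mvk*, the kinase of mevalonate, and *Idi1*, the isomerase of the isoprenoid unit, had the next smallest p in this role and did not pass. *Mvk* had 14.7, 14.6 and 14.1 CPM in controls and 11.2, 11.7 and 13.6 CPM in Pcp2-cre mice. *Idi1* had 36.7, 34.8 and 36.0 CPM in controls and 30.6, 32.6 and 29.7 CPM in Pcp2-cre mice. On CPM the genotypes did not overlap in either gene, but on FPKM they did for *Mvk*. The log2 fold changes of -0.25 and -0.21 had adjusted p of 0.238 and 0.102 in edgeR's quasi-likelihood test. Reads of *Idi1* can be shared with the pseudogene *Idi1-ps1*, whose sequence is identical over 26.4% of the *Idi1* transcript. *Acat2*, *Pmvk* and *Mvd*, which encode a thiolase, a kinase and a decarboxylase, overlapped between genotypes, and *Acat2* has a near copy, *Acat3*, at 97.7% identity over 55.4% of its transcript.

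*Fdps*, which joins isoprenoid units into farnesyl diphosphate, was not tested. It had 3, 5 and 10 counts in controls and 7, 6 and 3 counts in Pcp2-cre mice (two-sided exact permutation test on CPM, p = 1). In the deposited FPKM it was not low, at 18.4, 16.4 and 17.8 in controls and 15.1, 16.1 and 14.9 in Pcp2-cre mice, with the genotypes just apart. The processed pseudogene *Gm3571* matches 81.3% of the *Fdps* transcript at 98.9% identity, and how reads that fit both were counted is not given in the sources used here. The counts and the FPKM of *Fdps* therefore cannot be set side by side, and its level remained uncertain.

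The sterol steps run from squalene to cholesterol. Of the 11 enzymes, all tested, 1 fell and 10 did not pass. Among the 11, 5 had values below 0, and the median log2 fold change was 0.02. *Msmo1*, which removes methyl groups from the sterol ring, had 34.1, 36.0 and 32.7 CPM in controls and 28.2, 27.7 and 26.9 CPM in Pcp2-cre mice. The genotypes did not overlap, and no mouse stood apart from its own. *Msmo1* fell by 19.0% (log2 fold change -0.30, standard error 0.0765, adjusted p = 0.0138, edgeR's quasi-likelihood test). No other annotated gene shares its exons on chromosome 8 of GRCm39, 65170603 to 65186830. Its adjusted p in edgeR's test was 0.0633 without control mouse 2, 0.0739 without Pcp2-cre mouse 2 and 0.0571 without Pcp2-cre mouse 3, and 0.162 with DESeq2.

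*Fdft1*, which makes squalene, and *Cyp51*, the lanosterol demethylase, came next by p. *Fdft1* had 45.4, 47.6 and 47.2 CPM in controls and 38.5, 43.2 and 41.4 CPM in Pcp2-cre mice. *Cyp51* had 51.3, 47.1 and 47.4 CPM in controls and 46.6, 45.7 and 40.5 CPM in Pcp2-cre mice. Both were lower in every Pcp2-cre mouse, without passing (log2 fold changes -0.19 and -0.13, adjusted p = 0.123 and 0.365, edgeR's quasi-likelihood test). Exons of *Fdft1* overlap for 1184 bp with the opposite-strand gene *Ctsb*, which rose (log2 fold change 0.21, adjusted p = 4.68e-04), and those of *Cyp51* with *Akap9* for 1253 bp. The rest of these steps did not share a direction. *Nsdhl*, a decarboxylating dehydrogenase of the ring, and *Lss*, which closes squalene into lanosterol, had log2 fold changes of -0.20 and -0.11. *Sqle*, the squalene epoxidase, and *Dhcr7*, a reductase of the last steps, had 0.06 and 0.08, and *Tm7sf2*, *Hsd17b7*, *Ebp* and *Sc5d* lay between 0.02 and 0.04.

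Of the 6 genes listed as SREBP regulators, 3 fell, 1 rose and 2 did not pass (median log2 fold change -0.12). *Srebf2* encodes the factor that mainly drives cholesterol synthesis and *Srebf1* the one that mainly drives fatty acid synthesis. *Srebf2* had 140.7, 133.1 and 147.6 CPM in controls and 127.0, 127.7 and 126.8 CPM in Pcp2-cre mice. *Srebf1* had 46.2, 49.1 and 46.6 CPM in controls and 51.4, 60.9 and 57.0 CPM in Pcp2-cre mice. The genotypes did not overlap for either gene, and the directions were opposite. *Srebf2* fell by 9.77% (log2 fold change -0.15, standard error 0.0430, adjusted p = 0.0362, edgeR's quasi-likelihood test) and *Srebf1* rose by 19.8% (log2 fold change 0.26, standard error 0.0689, adjusted p = 0.0199). Exons of *Srebf2* overlap for 686 bp (7.34%) with the opposite-strand gene *Shisa8* (log2 fold change -0.22, adjusted p = 0.0756, same test). Those of *Srebf1* overlap for 114 bp with the opposite-strand gene *Rai1* (log2 fold change -0.09, adjusted p = 0.446).

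*Insig1* and *Insig2* encode the retention proteins of SCAP. *Insig1* had 54.9, 62.2 and 60.4 CPM in controls and 53.2, 50.4 and 49.0 CPM in Pcp2-cre mice. *Insig2* had 58.6, 57.8 and 58.8 CPM in controls and 50.3, 50.8 and 49.0 CPM in Pcp2-cre mice. Neither gene overlapped between genotypes, although control mouse 1 lay close to Pcp2-cre mouse 1 for *Insig1*. *Insig1* fell by 13.9% (log2 fold change -0.22, standard error 0.0643, adjusted p = 0.0420, edgeR's quasi-likelihood test) and *Insig2* by 14.3% (log2 fold change -0.22, standard error 0.0584, adjusted p = 0.0188). Neither shares exon bases with another annotated gene. *Scap* itself and *Stard4*, which carries cholesterol through the cytosol, had log2 fold changes of -0.08 and -0.09 and did not pass. *Scap* was lower in every Pcp2-cre mouse on CPM, while on FPKM the genotypes overlapped.

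The 4 regulator calls depended on single mice. In edgeR's test the adjusted p of *Srebf2* was 0.0931 without control mouse 1, 0.223 without control mouse 3, and 0.115, 0.135 and 0.120 without Pcp2-cre mouse 1, 2 or 3. That of *Srebf1* was 0.0862 without control mouse 1, 0.205 without Pcp2-cre mouse 2 and 0.0736 without Pcp2-cre mouse 3. *Insig1* had 0.143 and 0.111 without control mouse 2 or 3 and 0.158 and 0.151 without Pcp2-cre mouse 2 or 3. *Insig2* had 0.0532 and 0.0503 without control mouse 1 or 3 and 0.0542 and 0.0652 without Pcp2-cre mouse 2 or 3. None of the 4 passed with DESeq2, where adjusted p lay between 0.161 and 0.263, and their directions stayed the same under all 17 alternative settings.

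**Figure D3:**
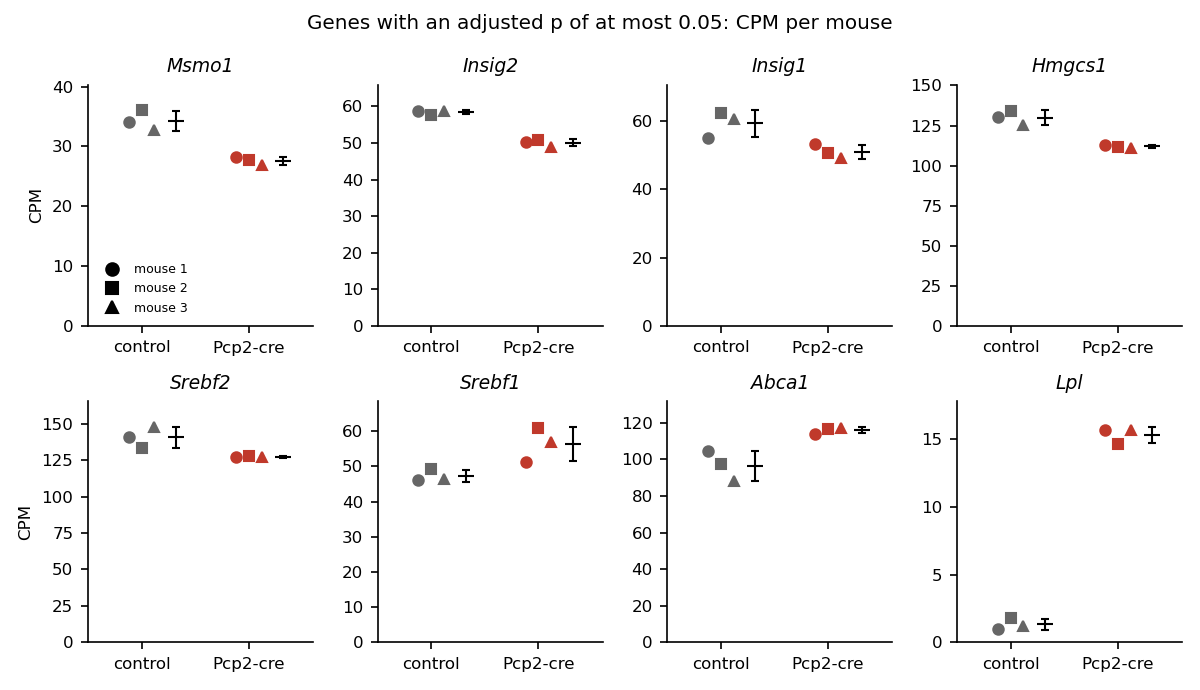
CPM (vertical axis, from 0) of the 8 genes that passed the test in each mouse, with a marker shape for each mouse number and black bars for the mean ± SD of 3 mice. The Pcp2-cre points lie below the controls for *Msmo1*, *Insig2*, *Insig1*, *Hmgcs1* and *Srebf2* and above them for *Srebf1*, *Abca1* and *Lpl*, with the only large gap at *Lpl*.

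Of the 7 tested LXR and efflux genes, 2 rose and 5 did not pass (median log2 fold change 0.02). *Lpl* encodes lipoprotein lipase, which releases fatty acids from lipoprotein particles. It had 8, 12 and 12 counts in controls and 119, 127 and 106 counts in Pcp2-cre mice, which is 0.998, 1.79 and 1.19 CPM against 15.7, 14.7 and 15.7 CPM. Every Pcp2-cre mouse lay far above every control. *Lpl* rose 11.7-fold (log2 fold change 3.55, standard error 0.197, adjusted p = 7.77e-11, edgeR's quasi-likelihood test) and passed in all 16 alternatives in which it was tested. It passed the filter on low counts only through the Pcp2-cre mice. On the FPKM scale it stood at 3.14 ± 0.266 in Pcp2-cre cerebella (SD, n = 3), still under every other gene of the group but *Ch25h*. The gene lies on chromosome 8 of GRCm39 from 69284603 to 69360100, and 95 bp of its exons are shared with an opposite-strand lncRNA.

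*Abca1* encodes the transporter that hands cholesterol and phospholipid to lipoprotein particles. It had 104.3, 97.2 and 88.0 CPM in controls and 114.1, 116.6 and 117.3 CPM in Pcp2-cre mice. The genotypes did not overlap, and the control mice spread more widely than the Pcp2-cre mice. *Abca1* rose by 20.7% (log2 fold change 0.27, standard error 0.0525, adjusted p = 0.00147, edgeR's quasi-likelihood test), with no exon of chromosome 4 (53030787 to 53159900, GRCm39) shared with another gene. The call held without any 1 mouse and with DESeq2 (adjusted p = 0.0102), and was not reached on FPKM (adjusted p of 0.0619 and 0.0621 with limma).

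*Abcg1*, a partner exporter that loads sterol onto formed particles, did not pass. It had 119.5, 120.0 and 129.2 CPM in controls and 115.5, 114.5 and 118.5 CPM in Pcp2-cre mice. On CPM all Pcp2-cre mice lay below the controls by a small margin (log2 fold change -0.09, adjusted p = 0.308, edgeR's quasi-likelihood test). On FPKM the genotypes overlapped. The LXR genes *Nr1h2* and *Nr1h3* had log2 fold changes of -0.02 and 0.10, *Soat1*, which esterifies cholesterol for storage, -0.05, and *Lpcat3*, which remodels phospholipids, 0.02. The opposite-strand gene *Emg1* shares 53.8% of the exon bases of *Lpcat3*, and whether strand was used in counting is not given in the sources used here.

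*Ch25h* encodes the hydroxylase that makes an oxysterol from cholesterol. It had 3, 3 and 1 counts in controls and 14, 10 and 10 counts in Pcp2-cre mice, or 0.374, 0.447 and 0.0991 CPM against 1.84, 1.15 and 1.48 CPM. Controls were all at or under the limit of 3 counts, and every Pcp2-cre mouse lay above it. The mean CPM of the Pcp2-cre mice was 4.0-fold the mean CPM that 3 counts stand for in the controls. This ratio takes no account of the error of the 10 to 14 counts in Pcp2-cre mice, so it is not a lower bound. In edgeR's fits with 1 mouse left out in which the gene was tested, the log2 fold change lay between 1.82 and 2.66. There the gene passed the filter on low counts through its higher values in Pcp2-cre mice. The range is therefore no separate support for a rise. *Ch25h* had a two-sided exact permutation p of 0.10, the smallest that 3 against 3 mice can give. Without the filter on low counts its adjusted p was 2.07e-04 with edgeR's quasi-likelihood test and 0.0778 with DESeq2. The opposite-strand lncRNA *Gm26902*, with 1, 3 and 2 counts in controls and 9, 5 and 4 in Pcp2-cre mice, shares 50.3% of the *Ch25h* exon.

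Genes next to these pathways were read in the same fit. Of 12 fatty acid genes, 2 fell (16.7%, beside 4.75% of all genes) and 10 did not pass (median log2 fold change -0.01). *Elovl6*, an elongase, went from 109.9 ± 4.55 to 83.8 ± 1.89 CPM (SD, n = 3 each, log2 fold change -0.39, adjusted p = 4.96e-06, edgeR's quasi-likelihood test), and *Fasn*, the fatty acid synthase, from 248.8 ± 11.2 to 224.4 ± 4.32 CPM (log2 fold change -0.15, adjusted p = 0.0362). Both fell while *Srebf1* rose. Of 23 genes of sterol transport and turnover, 3 rose, 3 fell and 17 did not pass, with a median of -0.04. Lower genes made up 13% of the 23, beside 4.75% of all genes, and 2.99% of all genes were higher. Those that rose were *Npc2*, which binds cholesterol in the lysosome, *Apod*, an apolipoprotein, and *Mylip*, which marks lipoprotein receptors for breakdown, with log2 fold changes of 0.42, 0.32 and 0.44. *Lrp8*, such a receptor of neurons, *Lcat*, which esterifies cholesterol on lipoproteins, and *Cyp46a1*, which turns neuronal cholesterol into an oxysterol that leaves the brain, fell by 0.36, 0.28 and 0.28 on the log2 scale.

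Markers of cerebellar cell types differed in the same libraries, in which 2.99% of all genes rose and 4.75% fell. Of 12 microglia markers 10 rose (median log2 fold change of all 12, 1.89), and their summed level was 142.2 to 147.7 CPM for controls against 403 to 462 CPM for Pcp2-cre mice. *P2ry12* and *Tmem119* did not pass (log2 fold changes 0.28 and 0.06, adjusted p = 0.495 and 0.922, edgeR's quasi-likelihood test). *Lpl*, *Abca1*, *Ch25h* and *Npc2* are known to be expressed by microglia or macrophages as well as by other cells. Any gene that was higher in Pcp2-cre mice, also *Srebf1*, *Apod* or *Mylip*, moved with the microglia list and with other lists that were higher. A link between them was not tested. All 8 Purkinje cell markers fell, from sums of 6235 to 6793 CPM to sums of 3350 to 3699 CPM. Of 8 oligodendrocyte markers 6 rose, with sums of 2324 to 2577 CPM in controls and 2787 to 2917 CPM in Pcp2-cre mice. Of 9 markers of astrocytes and Bergmann glia 4 rose and 2, *Slc1a3* and *Gdf10*, fell, with sums of 2940 to 2982 and 3358 to 3450 CPM. Of 8 granule cell markers 1 rose and 7 did not pass (4733 to 4784 CPM against 4909 to 5050 CPM), and all 6 endothelial markers did not pass, 1 of them with an unadjusted p under 0.05 (229 to 236 CPM against 245 to 252 CPM). No marker of these lists was at 0 in all mice. The part of these cell types in the differences of the sterol and efflux genes was not tested.

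Averages over each role were also taken per mouse. The mean log2 CPM of the mevalonate steps, set against the control mean, lay between -0.03 and 0.06 in controls and between -0.21 and -0.12 in Pcp2-cre mice. For the SREBP regulators the ranges were -0.03 to 0.03 and -0.09 to -0.07, and for the sterol steps -0.04 to 0.06 and -0.07 to -0.05, where the genotypes nearly touch. The LXR and efflux genes without *Lpl* overlapped, at -0.03 to 0.04 and 0.00 to 0.09. With an oligodendrocyte score as a covariate, which itself did not overlap between genotypes, *Abca1* and *Lpl* passed, at log2 fold changes of 0.53 and 3.58, and the 6 others did not. Of these 6, *Hmgcs1* and *Msmo1* had smaller values, -0.08 and -0.12, *Insig1* and *Insig2* stayed near theirs, -0.24 and -0.22, and *Srebf2* and *Srebf1* had larger ones, -0.33 and 0.42. With a choroid plexus score *Srebf2*, *Abca1* and *Lpl* passed, at -0.23, 0.41 and 3.68, while *Hmgcs1*, *Msmo1*, *Insig1*, *Insig2* and *Srebf1* had -0.16, -0.24, -0.26, -0.24 and 0.30 and did not pass. The choroid plexus score itself lay between -2.07 and 1.21 in controls and between -2.83 and -1.84 in Pcp2-cre mice. Only control mouse 3 lay within the Pcp2-cre range, so this score and genotype are hard to tell apart.

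**Figure D4:**
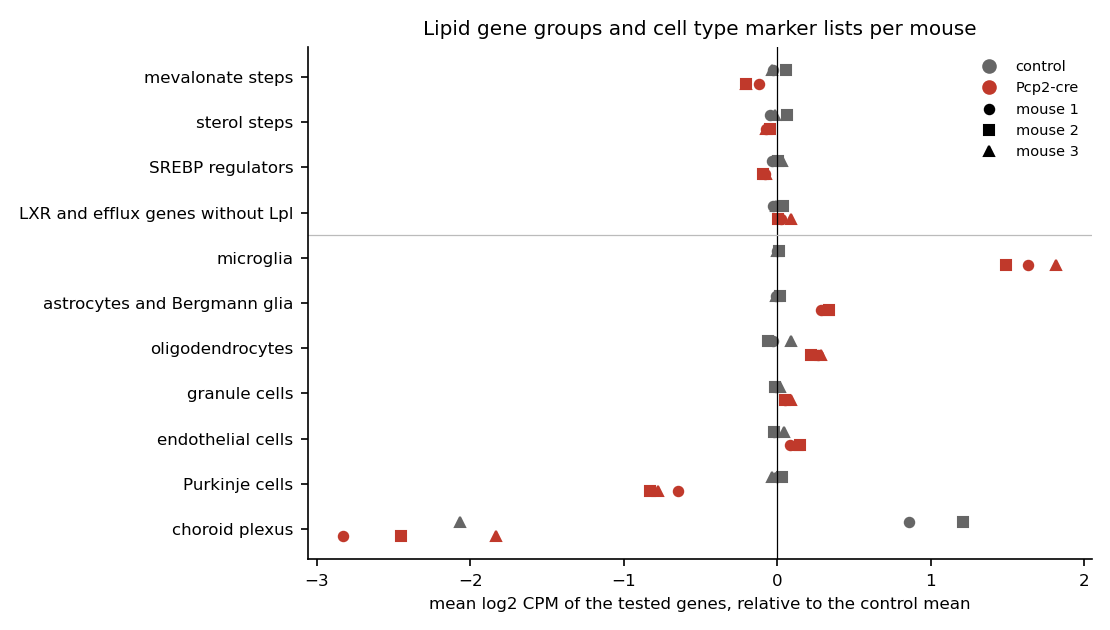
Mean log2 CPM of the tested genes of each list in each mouse, relative to the control mean (horizontal axis), with lipid gene groups above the grey line and cell type markers below it, grey for control and red for Pcp2-cre mice. The lipid groups, with *Lpl* left out of the LXR and efflux genes, lie between -0.21 and 0.09, whereas microglia markers lie 1.49 to 1.82 higher and Purkinje cell markers lie between -0.83 and -0.65 in Pcp2-cre mice.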

How the data were processed

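RNA-seq of whole cerebellum (poly A-enriched, paired reads) from 6 mice was grouped by the genotype in the sample labels. The authors made both tables from trimmed reads. STAR was their aligner, on GRCm39, and featureCounts and StringTie assigned reads to Gencode genes. Their own comparison used edgeR and DESeq. Versions, Gencode release, use of strand and handling of multi-mapping reads are not given in the sources used here. The deposited tables hold raw counts per gene and FPKM (fragments scaled to exon length and library size), with 1 column per mouse.

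Counts were tested with edgeR 4.0.16 under R 4.3.3 (TMM factors, filterByExpr, glmQLFit and glmQLFTest, no covariate) over 16961 genes, with Benjamini-Hochberg adjustment over all of them. Library totals of 6733178 to 10178218 set the precision, and the labels name separate mice. FPKM served to compare levels between genes, and was tested with limma 3.58.1 on log2(FPKM + 1) and log2(FPKM + 0.1), a scale that understates the change of low genes. Other alternatives were DESeq2 1.42.0 and its size factors, no filter, a minimum of 10 counts per mouse, covariates (replicate block, sex, marker scores), males alone, and each mouse left out. Genes past the test and the 3 smallest p of each role were given per mouse. Related genes were named where their adjusted p was at most 0.05. The genes, lists and roles were chosen with earlier results of these data known. Exon overlaps came from Gencode M39 (GRCm39), near-identical transcripts from minimap2 2.31 and promoters from RefSeq (GRCm38.p6). The scripts were tested on simulated data. Some single genes of these pathways were not analysed here.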

Additional observations from a re-analysis of the deposited data

How the results depend on the processing

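Among the 8 genes that passed, no direction changed under any of the 17 alternatives in which they were tested. All 8 calls held with DESeq2 size factors, without the filter on low counts and with sex as a covariate. DESeq2's own test left 1 gene lower in place of 5, the choroid plexus score 1, males alone 2, and the oligodendrocyte score and both FPKM fits 0, while the count of higher genes was 2 to 4 under every alternative. In these last fits 3 genes (oligodendrocyte score, edgeR) and 9 and 10 (FPKM, limma) were lower at an unadjusted p under 0.05, while the log2 fold changes of *Hmgcs1*, *Msmo1*, *Srebf2*, *Insig1* and *Insig2* were -0.08, -0.12, -0.33, -0.24 and -0.22 with the oligodendrocyte score and -0.24, -0.28, -0.15, -0.17 and -0.15 on FPKM with a pseudocount of 1. Leaving out each mouse in turn gave 1 to 4 lower genes (1 without Pcp2-cre mouse 2 or 3, 2 without control mouse 3, 3 without control mouse 1 or 2), 2 to 4 higher and 1 to 2 differentially expressed, the second being *Ch25h* without control mouse 1, 2 or 3 or Pcp2-cre mouse 2, where it passed the filter through its higher values in Pcp2-cre mice. That count was 2 without the filter, 2 with the oligodendrocyte score (*Lpl* and *Abca1*), and 0 at 10 counts in every mouse, which leaves out *Lpl*. The median of the synthesis enzymes, -0.12, was -0.079 with the oligodendrocyte score, -0.047 and -0.059 on FPKM with pseudocounts of 1 and 0.1, and -0.079 in males. That of the regulators was -0.19 with the choroid plexus score and -0.23 with the oligodendrocyte score, and lay between -0.15 and -0.093 with each mouse left out. The median of the LXR and efflux genes lay between -0.017 and 0.13 in those fits. The causes were not tested. Depth limits *Lpl* in controls, *Ch25h* and *Fdps*, which had at most 14 counts per mouse there.

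Same-numbered mice deviated together only weakly (correlations of 0.07, 0.08 and 0.23 across genes), so the numbers were not taken to pair the mice. With a replicate block 4 genes were lower and 3 higher, with *Srebf2* no longer passing (adjusted p = 0.0508, edgeR's quasi-likelihood test).

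Signs turned for 11 genes that never passed. With the choroid plexus score the log2 fold changes were 0.13 for *Pmvk*, -0.15 for *Tm7sf2*, 0.021 for *Nsdhl* and -0.018 for *Lpcat3*. With the oligodendrocyte score they were 0.37 for *Pmvk*, -0.13 for *Tm7sf2* and 0.023 for *Nsdhl*. On FPKM with pseudocounts of 1 and 0.1 they were 0.032 and 0.034 for *Pmvk*, -0.047 and -0.059 for *Hsd17b7*, -0.062 and -0.073 for *Nr1h3*, and 0.059 and 0.074 for *Soat1*. In males they were -0.0084 for *Ebp*, -0.079 for *Sc5d*, 0.015 for *Nr1h2* and -0.14 for *Nr1h3*. Over the fits that left out 1 mouse, the values ranged from -0.0089 to 0.098 for *Sqle*, -0.090 to 0.13 for *Tm7sf2*, -0.042 to 0.070 for *Ebp*, -0.19 to 0.024 for *Pmvk*, -0.034 to 0.058 for *Lpcat3*, -0.0047 to 0.092 for *Hsd17b7*, -0.070 to 0.069 for *Sc5d*, -0.044 to 0.0081 for *Nr1h2* and -0.056 to 0.27 for *Nr1h3*.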
